A study of Mus musculus with 27 samples.

Results

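Chemokines and inflammatory cytokines were followed in mouse thyroid gland organoids by 10 genes, Ccl2, Ccl20, Cxcl1, Cxcl2, Cxcl5, Cxcl10, Cxcl16, Il1a, Il1b and Il6, taken by name from the 50559 genes of the deposited count table. They were chosen as secreted signals of epithelia and of senescent cells, by name alone, although earlier results of these data were known when they were chosen. The organoids were grown in a basement membrane matrix from thyroid glands of C57BL/6 mice aged 8 to 12 weeks. They received 0, 2, 4 or 7 Gy of photons at day 5 of culture. RNA was sequenced at day 5 without irradiation, and at days 7 and 11 at each dose, which gave 9 groups of 3 libraries and 27 libraries in all. The column names carry 3 culture identifiers, mTG11, mTG12 and mTG14, and each group holds 1 library of each. The design text speaks of 4 mice and the labels of mouse 1, 2 or 3, and nothing tied a culture identifier to one of these numbers.

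Chemokines are small secreted proteins that draw leukocytes along a gradient. Ccl2 attracts monocytes through Ccr2, Ccl20 attracts lymphocytes and dendritic cells through Ccr6, and Cxcl1, Cxcl2 and Cxcl5 attract neutrophils through Cxcr2. Cxcl10 is induced by interferons and binds Cxcr3, and Cxcl16 is made as a membrane protein, shed by proteases, and binds Cxcr6. The interleukins Il1a and Il1b act on one receptor, Il1r1, and Il6 acts through Il6ra and Il6st. Many of these genes are targets of NF-kB, and several are counted among the secreted factors of senescent cells.

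Libraries held between 2528866 and 5723150 counts (median 3758142), so 3 counts, the least taken as detectable, corresponded to 0.524 to 1.19 CPM, counts scaled to a library total of 1000000. These limits cover counting error only. The epithelial markers Krt5 (1996 to 6433 CPM over the 27 libraries) and Epcam (203 to 697 CPM) were high. Of the thyroid markers, Nkx2-1 (6.32 to 21.5 CPM) and Foxe1 (20.3 to 43.0 CPM) were present, while Tshr and Slc5a5 did not exceed 4 and 1 counts in any library. The leukocyte gene Ptprc did not exceed 3 counts and Cd3e was at 0 in every library. The summed level of the 12 leukocyte markers, 84.8 to 344 CPM, lay mostly in Cd14, Cd68 and S100a8.

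On the genome, Cxcl5 (chr5:90907186-90909483), Cxcl1 (chr5:91039094-91040974), Cxcl2 (chr5:91051730-91053797) and Cxcl10 (chr5:92494497-92496748) lie on the same stretch of chromosome 5 of GRCm39, and Il6 is on the same chromosome (chr5:30218112-30224979). Il1a (chr2:129140291-129152098) and Il1b (chr2:129206490-129213059) are neighbours on chromosome 2. Ccl2 (chr11:81926397-81928279) and Cxcl16 (chr11:70344517-70352620) are on chromosome 11, and Ccl20 (chr1:83094487-83096888) is on chromosome 1. All 10 are protein-coding. The sources used here do not say whether counting used strand, and genes on the opposite strand overlap Cxcl5, Cxcl10, Cxcl16, Il1a, Il1b and Il6, so reads of such partners could not be told apart from theirs.

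RefSeq promoter sequences (250 bases before to 50 after the start, table of build GRCm38.p6) were matched for 7 of the 10 genes, all but Ccl2, Cxcl5 and Cxcl16. Those of Cxcl1, Cxcl2 and Cxcl10 are shown because these were the genes with the largest changes after 7 Gy at day 7. Each stretch runs up to the base before the RefSeq start, was found once in GRCm39, and has in capitals every match to the kB consensus, which NF-kB binds, to TGANTCA, the AP-1 motif, and to an interferon response motif (GAAA, any 2 bases, GAAA), searched on both strands.
Cxcl1, chr5:91039023-91039103, plus strand: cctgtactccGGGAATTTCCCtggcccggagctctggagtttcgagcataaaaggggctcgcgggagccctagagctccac
Cxcl2, chr5:91051651-91051757, plus strand: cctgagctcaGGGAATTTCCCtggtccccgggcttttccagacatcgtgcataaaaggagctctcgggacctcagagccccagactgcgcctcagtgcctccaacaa
Cxcl10, chr5:92496749-92496971, minus strand: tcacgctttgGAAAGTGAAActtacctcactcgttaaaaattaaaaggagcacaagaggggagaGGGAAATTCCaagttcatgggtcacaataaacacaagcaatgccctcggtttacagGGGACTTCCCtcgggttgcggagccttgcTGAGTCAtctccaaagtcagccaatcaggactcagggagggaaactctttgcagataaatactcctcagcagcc
Cxcl1 and Cxcl2 carried the same kB match, which reads on both strands in overlapping frames. Cxcl10 carried 2 kB matches, 1 interferon response motif and 1 AP-1 match. The kB consensus was found in 5 of the 7 matched genes (Ccl20, Cxcl1, Cxcl2, Cxcl10 and Il6), and in 4.51% of 32851 promoters of the table. The interferon response motif was found in Cxcl10 alone among the 7 (3.44% of all promoters), and TGANTCA in Cxcl10, Il1a and Il6 (7.81%). A match describes the letters and is not evidence of binding.

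The libraries were made by Smart3SEQ, which reads the 3′ ends of polyadenylated RNA. The 3′ UTR stretches with the most ATTTA pentamers, which are in capitals, are shown for the genes richest in them per base, since this pentamer is the core of AU-rich elements known to shorten the life of cytokine messages.
Cxcl2: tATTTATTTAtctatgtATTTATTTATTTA
Cxcl1: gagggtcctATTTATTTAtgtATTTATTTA
Il6: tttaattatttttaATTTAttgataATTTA
The 3′ UTR of Cxcl2 held 11 ATTTA in 737 bases (14.9 per kb), more per base than 99.6% of 21536 genes. Cxcl1 held 7 in 595 bases (11.8 per kb), Il6 held 6 in 430 bases, Ccl20 held 5 in 453 bases, and Il1b held 4 in 462 bases. Cxcl16 had the lowest density of the 10, with 2 in 1716 bases, and Ccl2 held 1 in 278 bases. With 5 or more pentamers were 6 of the 10 genes, and 23.1% of all genes with a 3′ UTR.

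A gene counted as detected in a group when each of its 3 libraries had at least 3 counts. By that measure 7 of the 10 were detected in all 9 groups. Cxcl10 was detected in 7 of 9, the exceptions being the non-irradiated organoids of day 5 (4, 1 and 0 counts in mTG11, mTG12 and mTG14) and of day 11 (2, 0 and 2 counts). Il1b and Il6 were at the detection limit in every group. Il1b had 18 counts over all 27 libraries, 1 of which, the 7 Gy library of mTG14 at day 7 with 6 counts, reached 3 counts. Il6 also had 18 counts in all, and no library had more than 2. Il1b was above 0 in 11 libraries and Il6 in 12, and no fold change is given for either. The plot of levels by library shows all 10 genes.

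**Figure D1:**
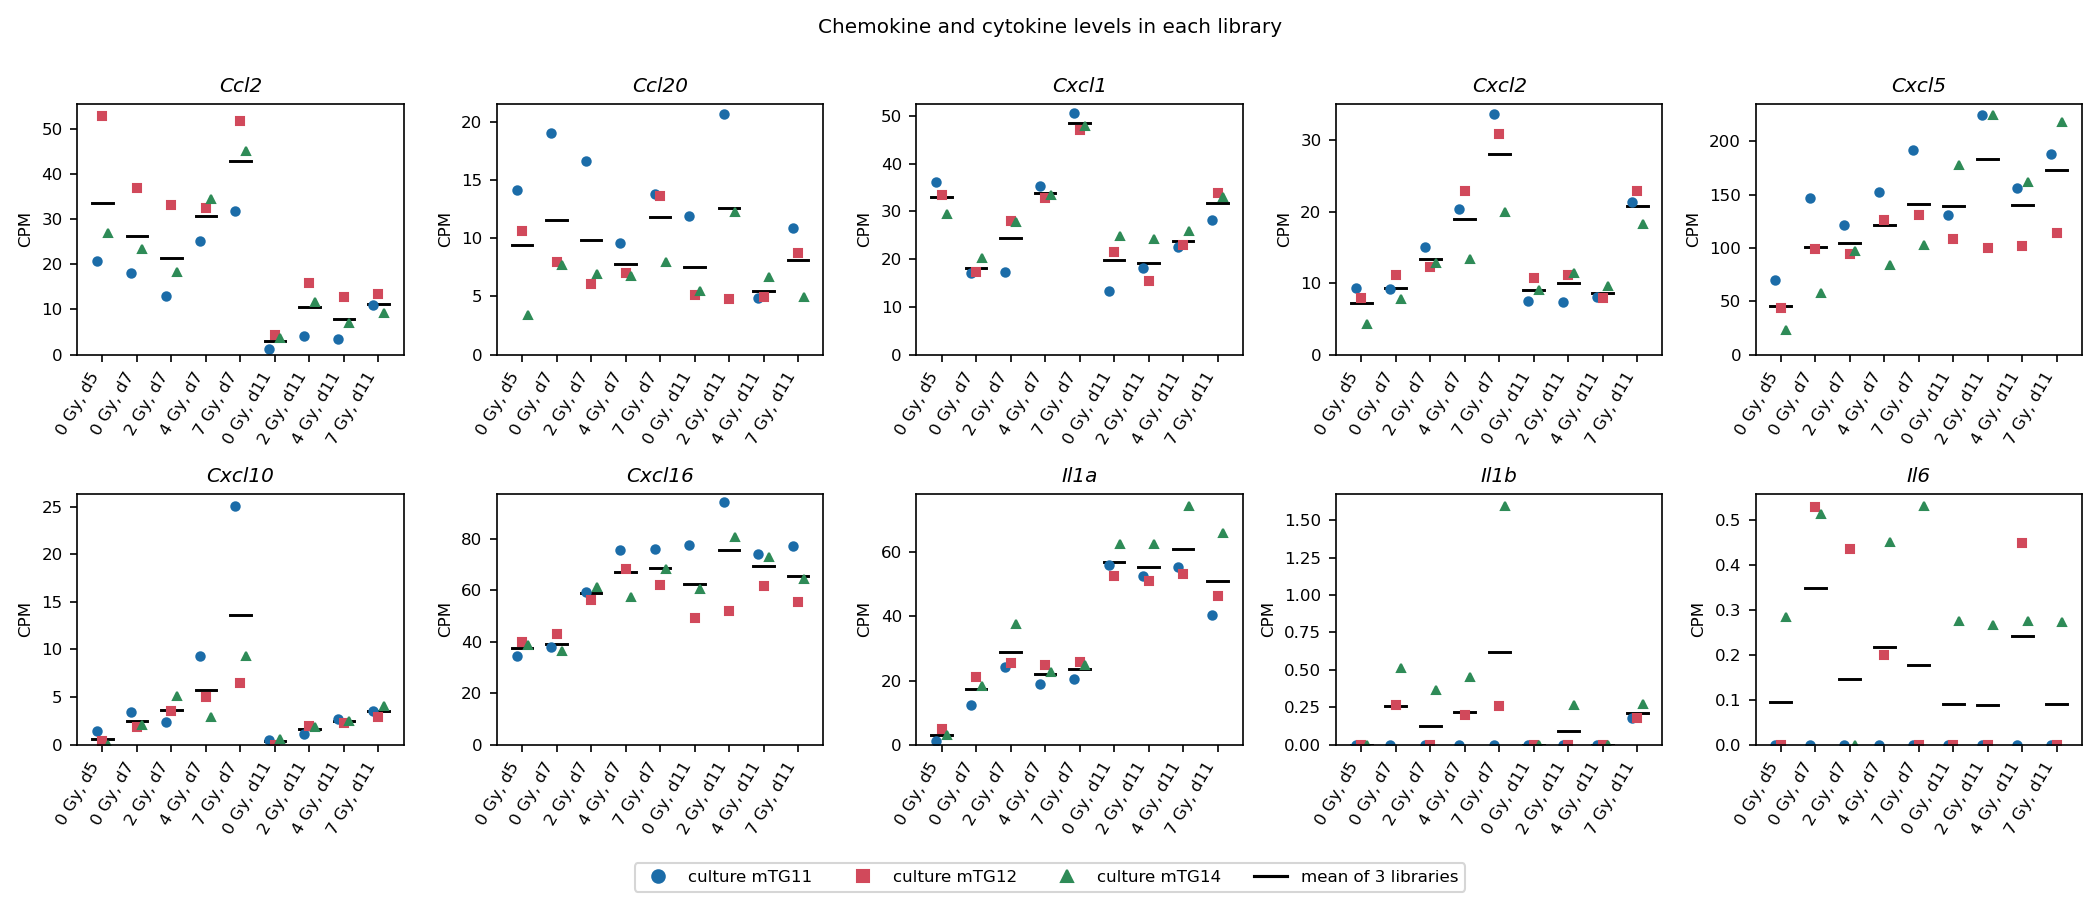
Level of each of the 10 genes (vertical axes, CPM, each panel from 0 with its own scale) in the 27 libraries, grouped by dose and day on the horizontal axes. Points are libraries, colored and shaped by culture, and bars are means of 3 libraries. Il1a rises in steps with the day, Cxcl1 and Cxcl2 rise with dose at day 7, and no panel for Il1b or Il6 exceeds 1.60 CPM.

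The first question was how these genes moved as non-irradiated organoids grew from day 5 to day 11. The clearest change was in Il1a, an interleukin that epithelial cells hold in store and release on damage. In mTG11, mTG12 and mTG14 it stood at 1.03, 4.94 and 3.14 CPM at day 5, then at 12.5, 21.2 and 18.3 CPM at day 7, and finally at 55.9, 52.5 and 62.7 CPM at day 11. Values of 3 libraries are given in this order of cultures throughout. Each day lay above the one before it with no overlap. Il1a rose between days 5 and 7 by 2.67 on the log2 scale (SE 0.35, edgeR quasi-likelihood test, Benjamini-Hochberg adjusted p = 0.000287) and between days 7 and 11 by 1.71 (SE 0.22, edgeR adjusted p = 0.000188). From day 5 to day 11 this was 20.9-fold (log2 4.38, SE 0.31, edgeR adjusted p = 5.07e-07), and the gene was called without any 1 of the libraries. In bulk RNA, a change in the number of cells that make a message and a change in the message per cell cannot be told apart.

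Ccl2, the monocyte chemokine, moved the other way and late. It measured 20.7, 52.8 and 26.9 CPM at day 5 and 18.1, 36.8 and 23.4 CPM at day 7, which overlapped. At day 11 it was at 1.19, 4.29 and 3.57 CPM, below every library of the earlier days. Ccl2 fell by 3.14 on the log2 scale from day 7 to day 11 (SE 0.47, edgeR adjusted p = 0.000545) and fell by 3.32 from day 5 (SE 0.47, edgeR adjusted p = 0.000133), with each of the 3 cultures lower. Between days 5 and 7 its log2 difference of -0.18 (95% interval -0.86 to 0.49) did not pass the test.

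Fibroblast markers moved with Ccl2. The summed level of 8 of them (Col1a1, Col1a2, Col3a1, Dcn, Lum, Pdgfra, Pdgfrb and Thy1) ranged from 32.1 to 116 CPM at day 5, from 21.2 to 111 CPM at day 7 and from 5.95 to 38.3 CPM at day 11 without irradiation. Of these 8 genes, 5 fell between days 5 and 11 and 0 rose, beside 41.3% of all genes called in either direction. Their median log2 difference was -2.20 against 0.06 over all genes tested. Over the 27 libraries, which share cultures and library preparation, the log2 level of Ccl2 and that of the fibroblast sum had a Pearson r of 0.71 and a Spearman rho of 0.65. Without irradiation, Ccl2 per unit of fibroblast sum had a day 5 median of 0.457, a day 7 median of 0.502 and a day 11 median of 0.130. By culture it stood at 0.853, 0.502 and 0.212 at day 7 and at 0.200, 0.112 and 0.130 at day 11. The day 11 values rest on 5, 16 and 13 counts of Ccl2. At 5 counts, the 0.200 of mTG11 cannot be told apart from the 0.212 of mTG14 at day 7. The part of fibroblasts in the change of Ccl2 was not tested further. The plot of Ccl2 against the fibroblast sum shows both quantities.

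**Figure D2:**
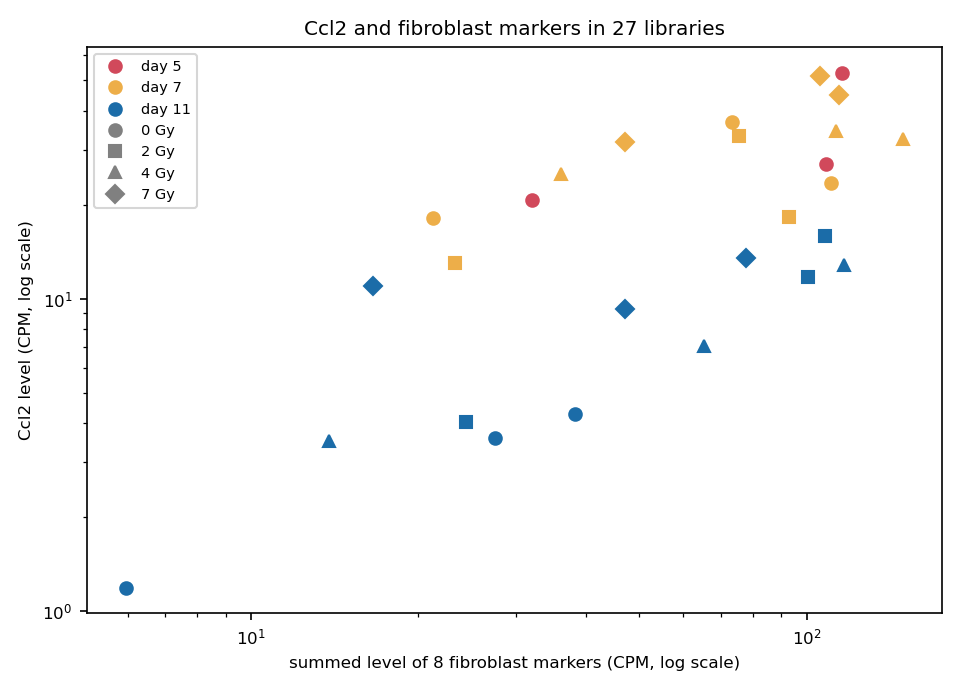
Ccl2 level (vertical axis, CPM, log scale) against the summed level of 8 fibroblast markers (horizontal axis, CPM, log scale) in 27 libraries, with color for the day and shape for the dose. Day 11 libraries, at 1.19 to 15.9 CPM of Ccl2, lie mostly below those of days 5 and 7 at like marker levels.

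Cxcl16, the membrane-bound chemokine, was level at first and rose late. Its levels read 34.5, 39.9 and 38.8 CPM at day 5, 37.8, 42.9 and 36.5 CPM at day 7, and 77.6, 49.3 and 60.5 CPM at day 11. All 3 libraries of day 11 lay above the 6 earlier ones. Cxcl16 rose by 0.68 on the log2 scale from day 7 to day 11 (SE 0.15, edgeR adjusted p = 0.00671) and by 0.88 from day 5 (SE 0.15, edgeR adjusted p = 0.000667).

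The neutrophil chemokines did not move together. Cxcl5 measured 69.6, 44.1 and 23.1 CPM at day 5, 147, 98.6 and 58.2 CPM at day 7, and 130, 108 and 178 CPM at day 11. Day 5 and day 7 overlapped between cultures, although Cxcl5 was higher at day 7 within all 3, and day 11 lay above day 5. The rise from day 5 to day 11 was 1.77 on the log2 scale (SE 0.37, edgeR adjusted p = 0.00223). That from day 5 to day 7 was 1.30 (SE 0.37, edgeR adjusted p = 0.0263). Without 1 library the day 7 call was lost in 4 of 6 cases: without mTG12 (adjusted p = 0.0748) or mTG14 (0.0892) at day 5, and without mTG11 (0.104) or mTG12 (0.0514) at day 7. DESeq2 did not make it either (adjusted p = 0.0580).

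Cxcl1 fell early, from 36.2, 33.5 and 29.4 CPM at day 5 to 17.0, 17.2 and 20.3 CPM at day 7, and measured 13.3, 21.4 and 24.8 CPM at day 11. All 6 libraries of days 7 and 11 lay below those of day 5. Cxcl1 fell by 0.71 on the log2 scale to day 7 (SE 0.21, edgeR adjusted p = 0.0316) and by 0.59 to day 11 (SE 0.21, edgeR adjusted p = 0.0391). Both calls were lost in 4 of 6 cases when 1 library was left out. For day 7 these were mTG11 (adjusted p = 0.102) and mTG12 (0.0681) of day 5, and mTG11 (0.0932) and mTG12 (0.0828) of day 7. For day 11 they were mTG11 (0.118) and mTG12 (0.0737) of day 5, and mTG11 (0.130) and mTG12 (0.0625) of day 11. Cxcl2 measured 9.31, 7.98 and 4.28 CPM at day 5, 9.12, 11.1 and 7.72 CPM at day 7 and 7.50, 10.7 and 9.07 CPM at day 11, which overlapped, and it did not pass the test between any pair of days.

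Cxcl10 had 5 counts at day 5, 28 at day 7 and 4 at day 11 over 3 libraries each. Its 3 libraries of day 7 (3.39, 1.86 and 2.06 CPM) lay above all those of day 5 (1.38, 0.380 and 0 CPM) and of day 11 (0.476, 0 and 0.550 CPM). Pooled as CPM, day 11 stood at 0.142 of day 7 (95% counting interval 0.0362 to 0.406), and day 7 at 4.40 times day 5 (1.68 to 14.6). The fitted fall from day 7 to day 11 was called (edgeR adjusted p = 0.0353), but not by DESeq2 (adjusted p = 0.0729). It was lost without mTG11 (adjusted p = 0.103) or mTG14 (0.0631) of day 7, and without mTG11 (0.0773), mTG12 (0.0947) or mTG14 (0.0600) of day 11. The rise from day 5 to day 7 was not called (edgeR adjusted p = 0.0731), and was called with the culture as a block (adjusted p = 0.0419).

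Ccl20 did not pass the test between any pair of days. Its levels, 14.1, 10.6 and 3.42 CPM at day 5, 19.0, 7.95 and 7.72 CPM at day 7 and 11.9, 5.09 and 5.50 CPM at day 11, differed more between cultures than between days. It was highest in mTG11 in 8 of the 9 groups. Its log2 difference between days 5 and 11 was -0.13, with a 95% interval from -1.12 to 0.87. A fall or a rise within these wide bounds stays compatible with the data.

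In counts, 3 of the 8 testable genes were called from day 5 to day 7 (2 higher, 1 lower), beside 21.6% of the 18442 genes tested. From day 7 to day 11 it was 4 of 8 (2 higher, 2 lower) beside 21.2%, and from day 5 to day 11 it was 5 of 8 (3 higher, 2 lower) beside 41.3%. The median log2 difference of the 8 was 0.51, 0.04 and 0.19 in these comparisons, against 0.04, 0.00 and 0.06 over all genes. Il1b and Il6 were too low to be tested between days. Markers of cell types also moved between days 5 and 11. Of 12 leukocyte markers 5 were tested, and 3 rose and 1 fell, beside 41.3% of all genes called. Among them, Cd68 rose from 6.29 to 44.8 CPM and Cd14 from 49.2 to 167 CPM, and S100a8 fell from 185 to 5.31 CPM. The leukocyte gene Ptprc did not exceed 3 counts in any library, so these 3 genes alone do not show a change in leukocyte number. Among epithelial markers, Krt14 fell from 6849 to 1245 CPM and Krt18 rose from 122 to 542 CPM. The part of such shifts in the changes of the 8 genes was not tested. The comparisons share libraries, so they are not independent of each other. Without TMM scaling the median over all genes moved from 0.04 to -0.11 between days 5 and 7 and from 0.06 to -0.08 between days 5 and 11, and the share of calls that were higher went from 55.5% to 35.9% and from 51.4% to 39.9%, while all calls of the 8 genes were kept in their direction. The plot of changes between days gives the fitted values.

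**Figure D3:**
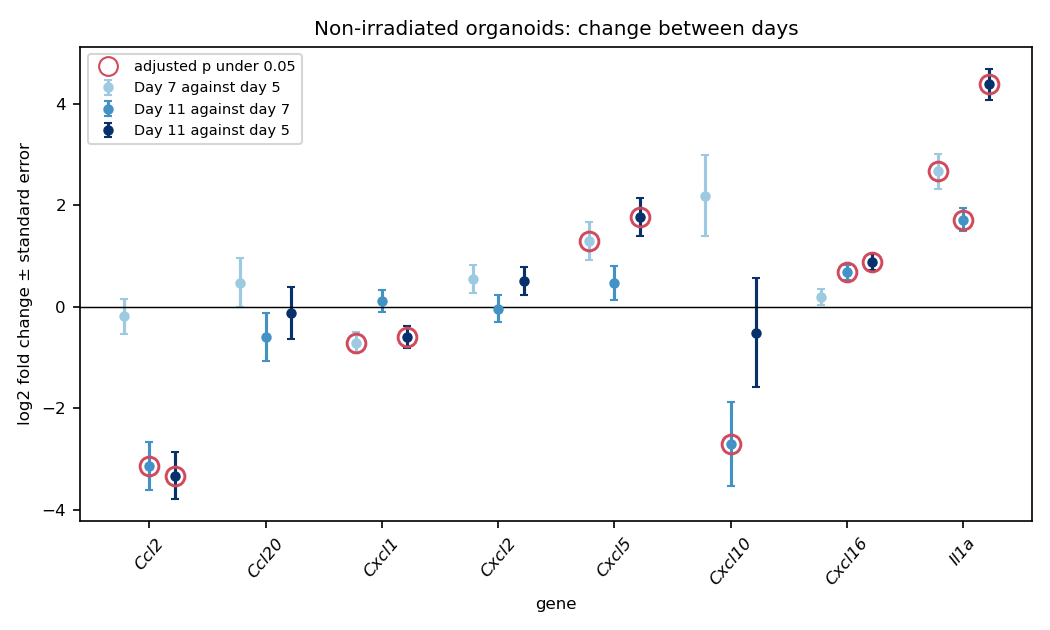
Fitted log2 fold change (vertical axis) between days in non-irradiated organoids for the 8 testable genes (horizontal axis). Bars are standard errors, shades are the 3 comparisons and red circles mark an adjusted p under 0.05. Il1a stands at 2.67, 1.71 and 4.38, Ccl2 falls only in the comparisons with day 11, and Ccl20 and Cxcl2 have no circle.

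Of 28 other chemokines, 17 were testable from day 5 to day 11. Of these, 4 rose and 1 fell, a share below the 41.3% of all genes called. Their median log2 difference was 1.24 against 0.06 over all genes. Among those that rose were Cxcl17, an epithelial chemokine (8.57 to 80.3 CPM, log2 3.39, SE 0.20, edgeR adjusted p = 1.68e-07), Ccl11, the eosinophil chemokine (22.6 to 58.2 CPM, log2 1.53, SE 0.39, edgeR adjusted p = 0.00769), and Cx3cl1 (24.8 to 63.7 CPM, log2 1.50, SE 0.13, edgeR adjusted p = 2.91e-06). Of 20 other cytokines tested, 10 rose and 2 fell, beside 41.3% of all genes called, and the median log2 difference without Tnfsf10, which was at 0 at day 5, was 0.60. Il33, an alarmin of the Il1 family, rose from 49.0 CPM at day 5 to 240 CPM at day 7 and stood at 112 CPM at day 11. Csf1, the macrophage growth factor, rose from 7.75 to 17.1 CPM between days 5 and 11, and Csf3, the neutrophil growth factor, from 4.70 to 15.5 CPM.

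Of 27 genes of the NF-kB pathway, 13 rose and 0 fell from day 5 to day 11, beside 41.3% of all genes called in either direction. Their median log2 difference was 0.56, against 0.06 over all genes. They included Zc3h12a, an RNase that cuts cytokine messages (log2 2.09, SE 0.18, edgeR adjusted p = 2.64e-06), and Nfkbiz (log2 1.89, SE 0.16, edgeR adjusted p = 2.22e-06). Of 14 interferon-stimulated genes, 13 rose and 0 fell, beside the same 41.3% of all genes called. Irf7 was among them and rose from 1.15 to 67.4 CPM. The median log2 difference without Mx2, which was at 0 at day 5, was 4.51, against 0.06 over all genes. Of 19 genes of receptors and processing, 13 could be tested, and 2 rose and 2 fell, a share below the 41.3% of all genes. Among those that fell was Il6ra, the receptor chain of Il6 (log2 -0.73, SE 0.21, edgeR adjusted p = 0.0132, called in 5 of 6 fits without 1 library).

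The second question was how the genes responded to dose at day 7, 2 days after irradiation. Cxcl1 and Cxcl2 both rose with dose. Cxcl1 measured 17.0, 17.2 and 20.3 CPM at 0 Gy, 17.4, 27.9 and 27.8 CPM at 2 Gy, 35.4, 32.7 and 33.5 CPM at 4 Gy and 50.6, 47.1 and 47.9 CPM at 7 Gy. The libraries of 4 Gy lay above all those of 0 and 2 Gy, and those of 7 Gy above all those of 4 Gy. Cxcl1 was 2.65-fold higher at 7 Gy (log2 1.41, SE 0.16, edgeR adjusted p = 0.000126) and 1.80-fold higher at 4 Gy (log2 0.85, SE 0.16, edgeR adjusted p = 0.0145). The 4 Gy call was lost without mTG11 (adjusted p = 0.0787) or mTG12 (0.0566) of 0 Gy, or mTG11 (0.0594) of 4 Gy. Over all 4 doses the slope was 0.20 per Gy on the log2 scale (SE 0.02, edgeR adjusted p = 2.89e-05).

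Cxcl2 measured 9.12, 11.1 and 7.72 CPM at 0 Gy, 15.0, 12.3 and 12.8 CPM at 2 Gy, 20.4, 23.0 and 13.4 CPM at 4 Gy, and 33.6, 30.8 and 20.0 CPM at 7 Gy. The irradiated libraries of each dose lay above those of 0 Gy, and within each culture the level rose from dose to dose. Cxcl2 was 3.00-fold higher at 7 Gy (log2 1.59, SE 0.23, edgeR adjusted p = 0.000889), with a slope of 0.23 per Gy (SE 0.03, edgeR adjusted p = 0.000180). At 4 Gy its log2 difference of 0.97 (SE 0.23) did not pass the test (edgeR adjusted p = 0.0555), and did with the culture as a block (adjusted p = 0.00368) and by DESeq2 (adjusted p = 0.0292). Cxcl5, the third of the Cxcr2 ligands followed here, measured 147, 98.6 and 58.2 CPM at 0 Gy and 191, 131 and 102 CPM at 7 Gy. These overlapped, while every culture was higher at 7 Gy. Its log2 difference of 0.49 (95% interval -0.06 to 1.04) did not pass the test (edgeR adjusted p = 0.348), and did with the culture as a block (adjusted p = 0.0148). So did its slope of 0.07 per Gy (edgeR adjusted p = 0.241, or 0.00711 with the block).

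Cxcl10, the interferon-induced chemokine, measured 3.39, 1.86 and 2.06 CPM at 0 Gy, 2.37, 3.48 and 5.11 CPM at 2 Gy, 9.33, 4.99 and 2.94 CPM at 4 Gy, and 25.1, 6.42 and 9.31 CPM at 7 Gy. The libraries of 7 Gy lay above those of 0 Gy, and mTG11 stood highest among them. Pooled, 160 counts at 7 Gy against 28 at 0 Gy gave a ratio of 5.64 (95% counting interval 3.76 to 8.76). The fitted log2 difference was 2.47 (SE 0.54, edgeR adjusted p = 0.0134). It was lost without mTG14 of 0 Gy (adjusted p = 0.0566) or mTG11 of 7 Gy, where the log2 difference was 1.67 (adjusted p = 0.0588). The slope over doses was 0.37 per Gy (SE 0.07, edgeR adjusted p = 0.00297), and it was called without any 1 of the 12 libraries.

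Cxcl16 measured 37.8, 42.9 and 36.5 CPM at 0 Gy, 59.3, 56.2 and 61.3 CPM at 2 Gy, 75.8, 68.5 and 57.3 CPM at 4 Gy, and 75.9, 62.0 and 68.1 CPM at 7 Gy. The libraries of each dose lay above those of 0 Gy, and the doses overlapped among themselves except that 7 Gy lay above 2 Gy. The log2 difference was 0.73 at 4 Gy (SE 0.12, edgeR adjusted p = 0.00707) and 0.81 at 7 Gy (SE 0.12, edgeR adjusted p = 0.00123). At 2 Gy it was 0.56 (SE 0.12), which did not pass the test (edgeR adjusted p = 0.147) and did with the culture as a block (adjusted p = 0.0416).

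Ccl2 measured 18.1, 36.8 and 23.4 CPM at 0 Gy and 31.8, 51.6 and 45.0 CPM at 7 Gy, which overlapped between cultures while each culture was higher at 7 Gy. Its log2 difference of 0.70 (SE 0.29) did not pass the test (edgeR adjusted p = 0.182) and did with the culture as a block (adjusted p = 0.00981). Its slope, 0.12 per Gy (edgeR adjusted p = 0.0905), was likewise called with the block alone (adjusted p = 0.00796). The fibroblast sum ranged from 21.2 to 111 CPM at 0 Gy and from 47.1 to 114 CPM at 7 Gy. Of its 8 genes 0 were called without the block, and 1 was higher with it, both at 7 Gy and by slope. With the block, 5.34% of all genes were higher at 7 Gy. Il1a measured 12.5, 21.2 and 18.3 CPM at 0 Gy and 20.6, 25.7 and 24.7 CPM at 7 Gy, and its log2 difference of 0.44 (95% interval 0.03 to 0.85) did not pass the adjusted test (edgeR adjusted p = 0.243). Its largest log2 difference was at 2 Gy, where it measured 24.1, 25.4 and 37.6 CPM, all above 0 Gy. There it was 0.70 (SE 0.21, edgeR adjusted p = 0.373), called only when genes with any count were tested (adjusted p = 0.0144). At 4 Gy it was 0.31 (edgeR adjusted p = 0.529). Ccl20, at 13.8, 13.6 and 7.98 CPM at 7 Gy, had a log2 difference of 0.03 (95% interval -0.71 to 0.76). The interval is wide, so the lack of a call does not show that Ccl20 was unchanged.

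At day 7, 4 of the 10 genes were called at 7 Gy, all higher, beside 6.95% of the 19346 genes tested in either direction and 3.2% higher. At 4 Gy it was 2 of 10, both higher, beside 1.63% in either direction and 0.972% higher, and at 2 Gy it was 0 of 10 beside 0.124%. At 2 Gy, 3 of the 10 genes (Cxcl1, Cxcl16 and Il1a) had an unadjusted edgeR p under 0.05, and DESeq2 also called 0. With the culture as a block 6 were higher at 7 Gy (5.34% of all genes), 3 at 4 Gy (2.84%) and 1 at 2 Gy (0.424%). The median log2 difference at 7 Gy over the 8 genes other than Il1b and Il6 was 0.75, against 0.01 over all genes. By slope, 4 of 10 were called, all higher, beside 8.62% of all genes in either direction and 3.9% higher. The 3 doses share their 0 Gy libraries.

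**Figure D4:**
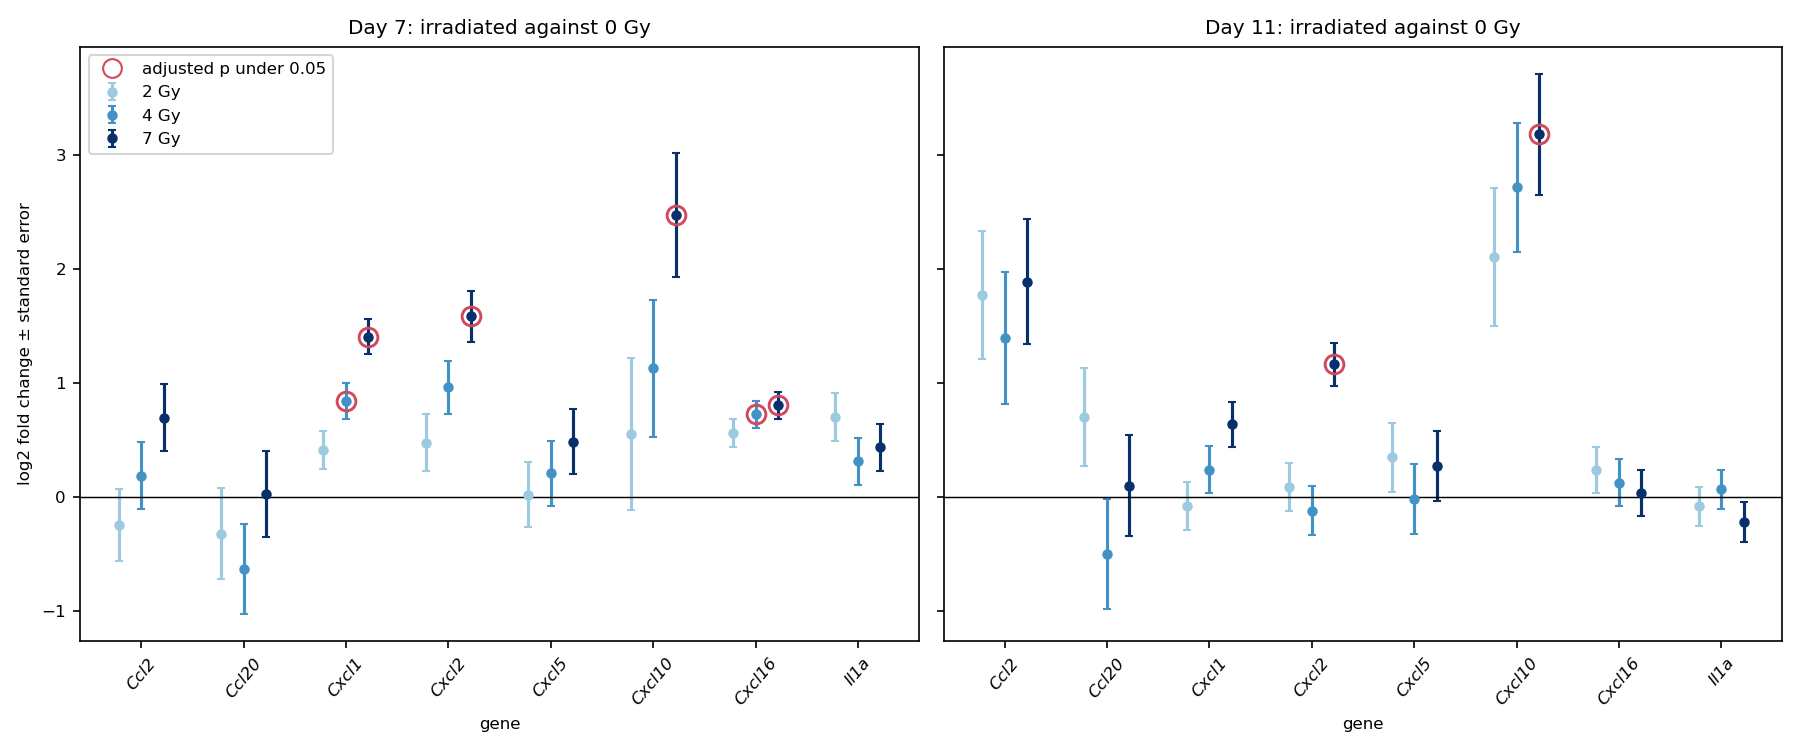
Fitted log2 fold change against 0 Gy (vertical axis) for 8 genes (horizontal axis) at day 7, left, and day 11, right. Bars are standard errors, shades are the doses and red circles mark an adjusted p under 0.05. Circles at day 7 stand on Cxcl1, Cxcl2, Cxcl10 and Cxcl16, and at day 11 on Cxcl2 and Cxcl10 at 7 Gy alone.

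At day 11, 6 days after irradiation, Cxcl2 and Cxcl10 were higher at 7 Gy than at 0 Gy. Cxcl2 measured 7.50, 10.7 and 9.07 CPM at 0 Gy, 7.38, 11.1 and 11.5 CPM at 2 Gy, 8.11, 7.87 and 9.66 CPM at 4 Gy, and 21.3, 22.9 and 18.3 CPM at 7 Gy. The libraries of 7 Gy lay above all 9 others of the day, and those of 0, 2 and 4 Gy overlapped. The log2 difference at 7 Gy was 1.16 (SE 0.19, edgeR adjusted p = 0.0124). It was lost, narrowly, without mTG11 (adjusted p = 0.0505) or mTG14 (0.0505) of 0 Gy.

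Cxcl10 measured 0.476, 0 and 0.550 CPM at 0 Gy, 1.12, 1.95 and 1.86 CPM at 2 Gy, 2.70, 2.25 and 2.48 CPM at 4 Gy, and 3.49, 2.88 and 4.10 CPM at 7 Gy. The 4 groups stood in the order of dose without overlap. These are small counts, with 4, 19, 29 and 51 over 3 libraries, and against 0 Gy the pooled ratios were 4.65 at 2 Gy (95% counting interval 1.55 to 18.8), 7.13 at 4 Gy (2.50 to 27.9) and 9.87 at 7 Gy (3.63 to 37.6). The fit called 7 Gy (edgeR adjusted p = 0.0135), and did so without any 1 of the 6 libraries. It did not call 4 Gy (edgeR adjusted p = 0.217), which was called with the culture as a block (adjusted p = 0.0338), or 2 Gy (edgeR adjusted p = 0.829).

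The slopes over dose at day 11 were 0.17 per Gy for Cxcl2 (SE 0.04, edgeR adjusted p = 0.0197) and 0.33 per Gy for Cxcl10 (SE 0.07, edgeR adjusted p = 0.0198). The first was lost without mTG11 (adjusted p = 0.0796), mTG12 (0.0803) or mTG14 (0.0527) of 7 Gy, and the second without mTG11 of 0 Gy (0.0515) or mTG14 of 7 Gy (0.0589). Cxcl1 had a slope of 0.10 (SE 0.03) that did not pass the test (edgeR adjusted p = 0.0552) and did with the culture as a block (adjusted p = 0.00747), by DESeq2 (0.0189), without TMM scaling (0.0448), with any count (0.0293) and with filterByExpr (0.0399). By slope, 2 of the 8 genes were called, both higher, beside 2.51% of all genes in either direction and 1.73% higher.

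Cxcl1 measured 13.3, 21.4 and 24.8 CPM at 0 Gy and 28.1, 33.8 and 33.1 CPM at 7 Gy at day 11, which did not overlap. Its log2 difference of 0.64 (SE 0.20) did not pass the test (edgeR adjusted p = 0.139) and did with the culture as a block (adjusted p = 0.0172). Ccl2 measured 1.19, 4.29 and 3.57 CPM at 0 Gy, 4.03, 15.9 and 11.7 CPM at 2 Gy, 3.51, 12.8 and 7.04 CPM at 4 Gy, and 11.0, 13.5 and 9.28 CPM at 7 Gy. Each culture was higher at every dose than at 0 Gy, and the libraries of 7 Gy did not overlap those of 0 Gy. The log2 difference at 7 Gy was 1.89 (SE 0.54, edgeR adjusted p = 0.111), and it was called with the culture as a block (adjusted p = 0.00449) and by DESeq2 (adjusted p = 0.0243).

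Beside Ccl2, the fibroblast sum ranged from 5.95 to 38.3 CPM at 0 Gy, 24.4 to 108 CPM at 2 Gy, 13.8 to 117 CPM at 4 Gy and 16.6 to 77.9 CPM at 7 Gy of day 11. The median log2 difference of its 8 genes was 1.70 at 2 Gy, 1.69 at 4 Gy and 1.23 at 7 Gy. None of the 8 was called by edgeR without the block, and with the culture as a block 3, 2 and 3 were higher at these doses. Over all 19901 genes, 56, 172 and 717 were higher with the block. Ccl2 per unit of fibroblast sum had a median of 0.130 at 0 Gy, 0.147 at 2 Gy, 0.110 at 4 Gy and 0.197 at 7 Gy. The part of fibroblasts in the difference was not tested.

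Cxcl5, Cxcl16, Il1a and Ccl20 did not pass the test at any dose of day 11, and their ranges overlapped those of 0 Gy. At 7 Gy the log2 difference was 0.28 for Cxcl5 (95% interval -0.32 to 0.87), 0.04 for Cxcl16 (-0.36 to 0.43), -0.22 for Il1a (-0.55 to 0.12) and 0.10 for Ccl20 (-0.77 to 0.97). Cxcl16 at 0 Gy had by then reached 49.3 to 77.6 CPM, a range that overlapped the 55.4 to 77.2 CPM of 7 Gy.

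At 7 Gy, 2 of the 8 genes tested at day 11 were called, both higher, beside 1.52% of the 19901 genes tested in either direction and 1.06% higher, and 4 of 8 were higher with the culture as a block (3.6% of all genes). Of all calls at 7 Gy, 69.5% were higher, and 79.6% without TMM scaling. At 4 Gy it was 0 of 8 beside 0.00502%, with 1 higher under the block (0.864%), and at 2 Gy 0 of 8 beside 0%, that is, 0 genes of 19901. At each of these doses Ccl2 and Cxcl10 had an unadjusted edgeR p under 0.05, and DESeq2 called 0 of 8. The median log2 difference at 7 Gy was 0.46 over the 8 genes, against 0.01 over all genes.

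A single fit of 24 libraries compared the 7 Gy effect of day 11 with that of day 7. None of the 10 genes was called by edgeR or by DESeq2, beside 3.02% of 21928 genes, and 3 (Cxcl1, Cxcl16 and Il1a) had an unadjusted p under 0.05. The difference between days was -0.74 on the log2 scale for Cxcl16 (SE 0.25, edgeR adjusted p = 0.132, or 0.0188 with the culture as a block) and -0.74 for Cxcl1 (SE 0.26, edgeR adjusted p = 0.153). For Cxcl2 it was -0.39, with a 95% interval from -0.99 to 0.21, and for Ccl2 it was 1.23 (-0.05 to 2.51).

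Of 14 interferon-stimulated genes, 11 rose and 0 fell at 7 Gy of day 7, beside 6.95% of all genes called in either direction and 3.2% higher. Their median log2 difference was 2.53 against 0.01 over all genes. Among those that rose at 7 Gy were Rsad2 (1.42 to 25.3 CPM, log2 4.16, SE 0.74, edgeR adjusted p = 0.00383) and Isg15 (12.7 to 150 CPM, log2 3.56, SE 0.69, edgeR adjusted p = 0.00688), both antiviral effectors. At 4 Gy of day 7 none of the 14 was called by edgeR without the block, and 10 were higher with it, beside 2.84% of all genes. At 7 Gy of day 11, 3 of the 14 rose, Rsad2 and Stat2 among them, beside 1.06% of all genes. With the culture as a block 12 rose, beside 3.6%. The calls of Rsad2 and Stat2 held in 2 and 3 of 6 fits without 1 library.

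Of 28 genes of the NF-kB pathway, 3 rose and 2 fell at 7 Gy of day 7, beside 6.95% of all genes called in either direction, and 5 rose and 2 fell with the culture as a block. Tnfaip3, an inhibitor that NF-kB itself induces, rose from 13.2 to 25.6 CPM (log2 0.95, SE 0.16, edgeR adjusted p = 0.00238). Cebpb, a transcription factor of cytokine genes, fell by 0.68 (SE 0.15, edgeR adjusted p = 0.0127, called in 4 of 6 fits without 1 library). At 7 Gy of day 11, 3 of 27 rose and 1 fell, beside 1.52% of all genes called in either direction. Tnfaip3 (log2 1.15, SE 0.18, edgeR adjusted p = 0.00988) was again among those that rose, with Nfkbia, which encodes the inhibitor IkBa (log2 0.75, SE 0.11, edgeR adjusted p = 0.00714). The median log2 difference of the list was 0.06 at day 11, and 0.13 at day 7 without Traf1, which was at 0 at 7 Gy.

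Of 22 senescence-linked genes, 8 rose and 2 fell at 7 Gy of day 7, beside 6.95% of all genes called in either direction and 3.2% higher. The median log2 difference of the 22 was 0.54, against 0.01 over all genes. Those that rose included Cdkn1a, the p53-induced cell cycle inhibitor, which stood at 243 CPM at 0 Gy, 410 CPM at 2 Gy, 520 CPM at 4 Gy and 597 CPM at 7 Gy and was called at every dose. Its call at 2 Gy held in 1 of 6 fits without 1 library. Plau, which activates plasminogen, and Areg, a ligand of the EGF receptor, also rose at 7 Gy. At 7 Gy of day 11, 0 of the 22 rose and Vegfa fell, beside 1.52% of all genes called in either direction. The call of Vegfa held in 4 of 6 fits without 1 library. With the culture as a block, 6 rose and 2 fell, while 3.6% of all genes rose.

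At 7 Gy of day 7, 1 of 19 other chemokines tested rose, beside 3.2% of all genes. It was Ccl5, a T cell chemokine named after its values were seen, from 0.866 to 7.82 CPM (log2 3.13, SE 0.57, edgeR adjusted p = 0.00455). Of 21 other cytokines 1 rose, beside the same 3.2%. It was Csf1, also named after its values were seen (log2 0.86, called in 3 of 6 fits without 1 library). By slope, 3 of 19 other chemokines were called at day 7 and 1 of 18 at day 11, all higher. Of all genes, 3.9% and 1.73% were higher by slope at these days. Cxcl3, a close relative of Cxcl1 and Cxcl2 named after its values were seen, had a slope of 0.14 per Gy (SE 0.03, edgeR adjusted p = 0.0210, called in 9 of 12 fits without 1 library). At 7 Gy of day 7, 0 of the 13 receptor and processing genes tested were called, beside 6.95% of all genes. At day 7, 7 leukocyte, 2 endothelial and 6 epithelial markers were tested, and at day 11 it was 6, 1 and 6. None was called by edgeR at any dose without the block. At 7 Gy, 6.95% of all genes were called at day 7 and 1.52% at day 11, and fewer at the lower doses. With the block, 1 epithelial marker was higher at 7 Gy of day 11, beside 3.6% of all genes. With so few genes, the lack of calls does not show that cell content was unchanged.

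Set in order of level, the 9 groups formed different patterns for different genes. For Il1a the day set the order, since all 3 libraries of day 5 (1.03 to 4.94 CPM), the 12 of day 7 (12.5 to 37.6 CPM) and the 12 of day 11 (40.5 to 74.5 CPM) occupied separate ranges, whatever the dose. For Cxcl16 the 6 non-irradiated libraries of days 5 and 7 (34.5 to 42.9 CPM) lay below all 21 others (49.3 to 94.4 CPM), whose groups overlapped. For Cxcl1, 7 Gy of day 7 (48.5 ± 1.86 CPM, SD, n = 3) lay above every other library. It was followed by 4 Gy of day 7 (33.9 ± 1.38), day 5 (33.0 ± 3.40) and 7 Gy of day 11 (31.7 ± 3.10), which overlapped each other, and then by the other 5 groups, which covered 13.3 to 27.9 CPM and overlapped as neighbours.

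For Cxcl2 the order began with 7 Gy of day 7 (28.1 ± 7.21 CPM, SD, n = 3), 7 Gy of day 11 (20.9 ± 2.36) and 4 Gy of day 7 (18.9 ± 4.97), and each overlapped the next. The 5 lowest groups, among them day 5 (7.19 ± 2.61), did not exceed 11.5 CPM in any library. For Ccl2 the 15 libraries of days 5 and 7 covered 13.0 to 52.8 CPM and the 12 of day 11 covered 1.19 to 15.9 CPM. Within groups Ccl2 was lowest in mTG11 and highest in mTG12 in 8 of 9 groups each. For Cxcl5 the highest mean was at 2 Gy of day 11 (183 ± 71.9 CPM), which the other groups of that day overlapped.

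Across the 27 libraries, with log2(CPM + 1) after TMM scaling, the closest pairs among the 6 genes with a mean of at least 10 CPM were Cxcl5 with Cxcl16 (Pearson r 0.78), Cxcl16 with Il1a (r 0.74), Cxcl5 with Il1a (r 0.72) and Cxcl1 with Cxcl2 (r 0.63). After the group means were removed these were 0.51, 0.11, -0.27 and 0.15, so that most of the likeness lay between groups. The libraries share cultures and days, and these values are descriptions.

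Among the 9537 genes that averaged 10 CPM or more, the 3 most like Il1a were Adamtsl4 (r 0.98), Ecm1 (r 0.98), which encodes an extracellular matrix protein, and Marchf7 (r 0.97). Those most like Cxcl16 were Rtp4, Ifit1 and Ifi35 (r 0.90, 0.89 and 0.89), all known as interferon-stimulated genes, and those most like Cxcl5 were Tnip1, Trim12a and Irf1 (r 0.91, 0.89 and 0.89). For Cxcl2 they were Fam110c, Nfkbia and 9530068E07Rik (r 0.85, 0.81 and 0.80), for Cxcl1 they were Ei24, Fst and Cdc34 (r 0.84, 0.84 and 0.80), and for Ccl2 they were Oaf, Txndc17 and Cd44 (r 0.94, 0.93 and 0.90). The names depended on the measure, since with Spearman's rho 11 of these 18 stayed among the 3 most alike, and 1 of 3 each for Ccl2, Cxcl5 and Cxcl16.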

How the data were processed

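Total RNA of 27 organoid samples was made into Smart3SEQ libraries and sequenced as single reads by the authors, whose processing notes name STAR, edgeR and the build GRCm39. The counting tool, its annotation, the use of strand and how molecular identifiers were handled are not given in the sources used here. The authors deposited expected counts (estimated counts per gene symbol, not normalized). Of the values above 0, 56.3% were whole numbers. No column of another series was present. Library totals, and the precision they give, stand in the report, and the smallest chi-square per degree of freedom between replicates was 3.39 over 27 pairs, so no library was taken as deposited more than once.

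Columns were placed in groups by the day and dose in their names. CPM were computed here from the deposited counts and library totals. Counts were rounded to whole numbers for the tests with edgeR 4.0.16 (R 4.3.3): TMM, a minimum of 10 counts per gene in the sum of a fit's libraries, quasi-likelihood test, Benjamini-Hochberg adjustment over all genes of the fit at 0.05. The fit over days held 9 libraries, the fit over doses 12 for each day, and the fit of the 7 Gy responses 24. Intervals of fitted log2 differences are normal, those of pooled ratios exact (Python 3.11.15, scipy 1.17.1), at 95%. The normal intervals ignore the limited degrees of freedom of the test, so they are too narrow. Those of pooled ratios cover counting error only and leave out differences between libraries and cultures, so they are too narrow as well. The tests were tested on simulated data. Alternatives were DESeq2 1.42.0, no TMM, any count, filterByExpr, the culture as a block, only the compared groups, and each library left out.

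Deviations from the group means were alike within a culture: the lowest correlation between its libraries was 0.122 over days, 0.184 at day 7 and 0.263 at day 11. The highest between cultures were -0.0252, 0.065 and -0.0105. Removing the means of groups of 3 pushes the correlations between cultures below 0 on average, so their negative sign is no separate evidence. The pairing comes from the culture identifiers in the column names. The main fits have no block and treat the libraries as independent, although all come from the same 3 cultures. Their p-values therefore include baseline differences between cultures and do not measure how an effect varies across cultures. The fits with the culture as a block take out the baseline differences.

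All lists, like the 10 genes, were chosen with earlier results of these data known. Named were all 10 genes, the 3 genes most like each of those averaging 10 CPM or more, and from each list and comparison at most 4 genes that were called, averaged 10 CPM or more and did not overlap between groups. Ccl5, Csf1 at 7 Gy and the slope of Cxcl3 stand outside this rule and were named after their values were seen. Coordinates are from GENCODE M39, promoters from RefSeq. Values of some list genes are not reported here.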

Additional observations from a re-analysis of the deposited data

Results flagged for a closer look

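Cxcl16 was singled out because its 7 Gy responses at day 11 and day 7, compared directly, differed with the culture as a block. In that fit no other of the 10 genes was called. The edgeR adjusted p was 0.0188 with the culture as a block, 0.00495 when genes with any count were tested, and 0.132 as reported. Testing genes with any count also called Cxcl1 (edgeR adjusted p = 0.0461) and Ccl2 (0.00363). Cxcl1 was called as well without mTG11 of 0 Gy at day 11 (0.0246). The log2 difference of Cxcl16 at 7 Gy was 0.81 at day 7, where all 3 irradiated libraries lay above those of 0 Gy. It was 0.04 at day 11, where they overlapped. Groups of 3 libraries are too small for a test of single outlying samples, and none was made.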

How the results depend on the processing

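Over single genes, 550 of the refits that kept all libraries stayed on the same side of the threshold, 36 gained a call and 2 lost one, and of the refits without 1 library 754 stayed, 5 gained and 29 lost one. No fit changed the direction of a called gene. Calls lost without 1 library, or changed by the culture block, are given in the report, and the block changed no other call of the 10 genes. The 5 gained without 1 library were Cxcl10 from day 5 to day 7 (without mTG11 of day 5, adjusted p = 0.0270), Cxcl2 at 4 Gy of day 7 (mTG14 of 4 Gy, 0.0284), the slope of Ccl2 at day 7 (mTG12 of 0 Gy, 0.0177), that of Cxcl1 at day 11 (mTG14 of 0 Gy, 0.0159) and the difference of Cxcl1 between days (mTG11 of 0 Gy at day 11, 0.0246).

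Of the 10 genes, testing genes with any count called 2 at 2 Gy and 4 at 4 Gy of day 7 (0 and 2 as reported), 1, 2 and 4 at 2, 4 and 7 Gy of day 11 (0, 0 and 2), and 3 in the difference between days (0). With the replicate block 1, 1 and 4 were called at 2 Gy of day 7 and at 4 and 7 Gy of day 11, and 1 in the difference. Over all genes, at 2 Gy of day 7 (24 as reported) DESeq2 called 59, any count 404, the block 138 and only the compared groups 7. At 4 Gy (315) any count called 1263 and the block 1009, and at 7 Gy (1345) 2211 and 2193. At day 11 the counts for 2 Gy (0) were 1 by DESeq2, 267 with any count and 72 with the block, for 4 Gy (1) 37, 465 and 238, with 0 in only the compared groups, and for 7 Gy (302) 1205 with any count and 1297 with the block. The slope of day 11 (499) had 802 by DESeq2 and 1352 with the block, and the difference (663) 1234 with any count and 1156 with the block. Without 1 library the counts over all genes ranged from 8 to 24 at 2 Gy, 125 to 229 at 4 Gy and 705 to 1000 at 7 Gy of day 7, from 60 to 165 at 7 Gy of day 11, and from 287 to 626 for the slope of day 11. For the 10 genes they ranged from 1 to 3, 3 to 4 and 4 to 5 between days, 1 to 3 and 3 to 4 at 4 and 7 Gy of day 7, 1 to 2 at 7 Gy of day 11, 0 to 3 for the slope of day 11 and 0 to 1 for the difference. With Spearman's rho, 11 of the 18 most similar genes were shared. The cause was not tested.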
